A study of Mus musculus with 4 samples.

Results

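The Cd209 genes encode the mouse homologues of human DC-SIGN, a C-type lectin receptor of dendritic cells (DCs). The genes followed here were Cd209a, Cd209b, Cd209c, Cd209d and Cd209e, 5 of the 18193 genes that the platform annotation names on the array. They were chosen by gene symbol, and all 6 of their probe sets out of 45101 were used, with 1 probe set for each gene except Cd209b, which has 2. Gene expression had been measured in DCs sorted for high CD11c from the spleens of Cx3cr1gfp/+ mice on the C57BL/6 background, with 1 Affymetrix Mouse Genome 430.2 array per subset. By sample title they were CD8+ cells with CX3CR1 (CD8+CX3CR1+), CD8+ cells without it (CD8+CX3CR1-), CD4+ cells and DN cells, a term that usually means neither CD4 nor CD8. All 4 carried the same reporter allele, in which a fluorescent protein gene replaces 1 copy of Cx3cr1, and none was treated with BMP4. The sources used here do not give the age or number of the mice, nor whether cells were pooled. For the CD8+CX3CR1- and DN arrays another label field names a different subset than the title does, and the title was followed.

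DC-SIGN and its homologues are membrane proteins that bind sugars rich in mannose or fucose, such as those on bacteria, fungi, viruses and some host glycoproteins, and that carry what they bind into the cell. Mice have several such genes side by side where humans have CD209 and CLEC4M. Cd209a is the homologue often called mouse DC-SIGN or CIRE. Cd209b, or SIGNR1, is known in spleen as a receptor of marginal zone macrophages that takes up dextran and the capsule sugars of pneumococci. Cd209c is SIGNR2, Cd209d is SIGNR3, which binds mycobacterial and fungal sugars in mice, and Cd209e is SIGNR4.

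In the RefSeq gene order of assembly GRCm38.p6 the 5 genes lie on chromosome 8 in the order Cd209a, Cd209e, Cd209d, Cd209b, Cd209c. The B cell IgE receptor gene Fcer2a and the lectin gene Clec4g lie on the side of Cd209a, and the further homologues Cd209f and Cd209g on the side of Cd209c. No protein-coding gene other than the Cd209 genes lies between Cd209a and Cd209g. The windows around the RefSeq start sites, from 250 bases before to 50 bases after, are shown for 4 of the genes because those of Cd209a, Cd209d and Cd209e share a run of bases that the window of Cd209b, which aligns with that of Cd209d, does not hold. Sequences are from RefSeq (GRCm38.p6), run 5′ to 3′ on the minus strand and lie at chr8:3748935-3749234 (Cd209a), chr8:3878450-3878749 (Cd209d), chr8:3854237-3854536 (Cd209e) and chr8:3926792-3927091 (Cd209b). Capitals mark TTTCTCTTCCTA, the longest run of bases held by at least 3 of the 5 windows, which contains a match to the composite element of PU.1 and IRF factors (EICE, searched on both strands as GGAA and GAAA with any 2 bases between them). The Cd209b window has no capitals because it does not hold that run.
Cd209a: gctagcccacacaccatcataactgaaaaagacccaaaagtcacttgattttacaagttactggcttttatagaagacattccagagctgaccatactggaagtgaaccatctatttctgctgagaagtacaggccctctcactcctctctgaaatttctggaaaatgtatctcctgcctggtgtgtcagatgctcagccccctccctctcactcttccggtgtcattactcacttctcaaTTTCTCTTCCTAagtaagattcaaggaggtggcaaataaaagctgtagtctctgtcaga
Cd209d: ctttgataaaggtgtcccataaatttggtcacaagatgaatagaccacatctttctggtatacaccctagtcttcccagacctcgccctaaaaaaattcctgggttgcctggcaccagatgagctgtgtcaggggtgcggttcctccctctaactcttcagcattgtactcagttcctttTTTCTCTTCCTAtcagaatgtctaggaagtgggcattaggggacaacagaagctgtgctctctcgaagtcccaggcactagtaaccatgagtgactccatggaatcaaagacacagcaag
Cd209e: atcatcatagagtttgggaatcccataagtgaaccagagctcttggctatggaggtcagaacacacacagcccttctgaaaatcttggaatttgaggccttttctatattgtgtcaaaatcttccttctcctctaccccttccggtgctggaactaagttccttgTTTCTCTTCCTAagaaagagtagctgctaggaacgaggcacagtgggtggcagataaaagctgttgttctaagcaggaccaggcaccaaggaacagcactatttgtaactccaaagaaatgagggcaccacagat
Cd209b: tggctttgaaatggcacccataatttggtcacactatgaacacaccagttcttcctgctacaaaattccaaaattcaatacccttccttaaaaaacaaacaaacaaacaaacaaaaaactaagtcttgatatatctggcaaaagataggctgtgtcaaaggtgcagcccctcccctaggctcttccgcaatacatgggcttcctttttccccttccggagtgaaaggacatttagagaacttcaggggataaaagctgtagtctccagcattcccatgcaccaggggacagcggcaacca

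The EICE letters stood in 3 of the 5 windows, those of Cd209a, Cd209d and Cd209e, each time as TTTCTCTTCC, the reverse strand of the motif. Of all 32851 RefSeq windows of this length, 892 (2.72%) hold these letters on either strand. The 3 matches lie within the same shared run, in windows that align with each other. They are therefore not 3 separate occurrences to set against that share. Counted from the start site, the match covered bases -9 to 1 in Cd209a, -70 to -61 in Cd209d and -85 to -76 in Cd209e. The run TTTCTCTTCCTA occurs on either strand in 9 windows (0.0274%), and the 3 Cd209 windows are among them. It was looked for after the windows had been compared. Among the other letters searched, GAGGAA (the PU.1 core, in 28.3% of windows) occurred in Cd209d alone, and the STAT6 letters (TTC and GAA with 4 bases between, 6.95%) in Cd209e alone, where it overlaps the EICE match. The interferon-stimulated response element (ISRE; GAAA and GAAA with 2 bases between, 3.44%) and TGANTCA (AP-1, 7.81%) occurred in none of the 5. Both Cd209f and Cd209g held an AP-1 match. The Cd209c window held none of the letters searched. Such matches are letters in a window and not measured binding sites.

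**Figure D1:**
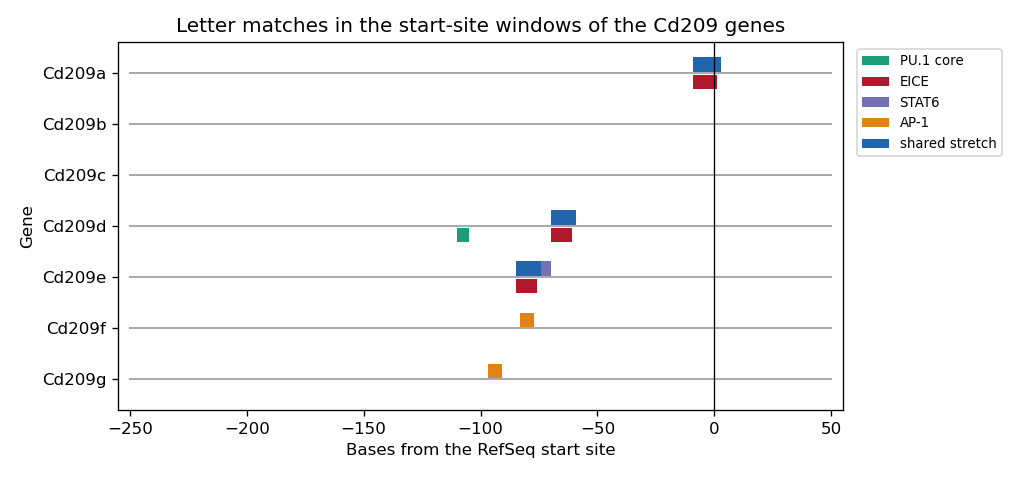
Positions of letter matches in the RefSeq start-site windows of the 7 Cd209 genes, in bases from the start site (vertical line). Bars above a gene's line are matches on the gene's own strand and bars below it on the opposite strand, and the shared stretch, drawn over part of the STAT6 match in Cd209e, is the run in capitals above. EICE and the shared stretch are seen in Cd209a, Cd209d and Cd209e.

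The windows were also alike beyond these letters. When the Cd209d window was aligned locally with every other window, the best of 32850 was that of Cd209b (79 aligned bases, 79.7% identical). Cd209a (66 bases, 84.8%) and Cd209e (55 bases, 87.3%) followed. These figures leave out gaps, which came to 6, 10 and 8 bases in the same order. The Cd209e window likewise had Cd209d as its best match, and Cd209a had Cd209d as its best. From the Cd209b window the ranks were lower, at 10 for Cd209d, 84 for Cd209e and 166 for Cd209a, so windows of genes outside the family aligned better with it. Cd209c stood apart, since the Cd209d window ranked 30262 among its matches and no other Cd209 window ranked above 19873.

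Signals are MAS5 intensities on a linear scale, and the levels of different probe sets are not comparable, so each gene is followed across arrays. A floor of 55.3, was taken as background. It is the 90th percentile, over all arrays, of 130 probe sets of genes not looked for in DCs (odorant, pheromone, taste and trace amine receptors and keratin-associated proteins). Each subset had a single array and thus no replicate. Values below therefore carry no SD and no p-value, and a difference describes 2 arrays, not 2 populations of mice. As a guide to probe error alone, the log2 difference of a gene with 2 or more probe sets above the floor on both arrays had a root mean square spread over its probe sets of 0.42 to 0.55 in the 6 comparisons. A difference of at least 4-fold was called, and where 1 array was at or under the floor the fold is given as a bound against it. The sort marker Cd8a had signals of 2530 (CD8+CX3CR1+), 4742 (CD8+CX3CR1-), 18.7 (CD4+) and 129.5 (DN). On the CD8+CX3CR1- and DN arrays, whose label fields conflict, Cd8a was thus high and low as their titles state. For Cx3cr1 the signals were 894, 97.3, 275.0 and 258 in the same order of arrays, and Cd4 was 93.3, 21.1, 564 and 93.9. Itgax, which encodes CD11c, lay between 3271 and 6415. The 3'/5' signal ratio of Gapdh, which rises as RNA integrity falls, was 8.98, 8.33, 11.8 and 7.56. For beta-actin the ratio was lower, at 2.32, 1.79, 2.86 and 2.23. In the same order, 41.9%, 41.2%, 47.9% and 42.7% of probe sets lay above the floor.

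Cd209a, Cd209c, Cd209d and Cd209e were highest on the CD8+CX3CR1+ array and no brighter than background on the CD8+CX3CR1- array. Of all 12673 detected genes, 22.6% were highest on the CD8+CX3CR1+ array, and 30.2% were lowest on the CD8+CX3CR1- array, as were Cd209a, Cd209b, Cd209c and Cd209d. On the CD4+ and DN arrays the genes parted. Cd209a stayed close to its CD8+CX3CR1+ level, Cd209c lay between, and Cd209d and Cd209e were at least 4-fold below it. Cd209b was near background on every array. By array, 4 of the 5 genes lay above the floor in CD8+CX3CR1+ DCs, 0 in CD8+CX3CR1- DCs, 4 in CD4+ DCs and 5 in DN DCs. Among all 12673 genes above the floor on at least 1 array, the shares were 76.1%, 74.9%, 84.5% and 76.9%.

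**Figure D2:**
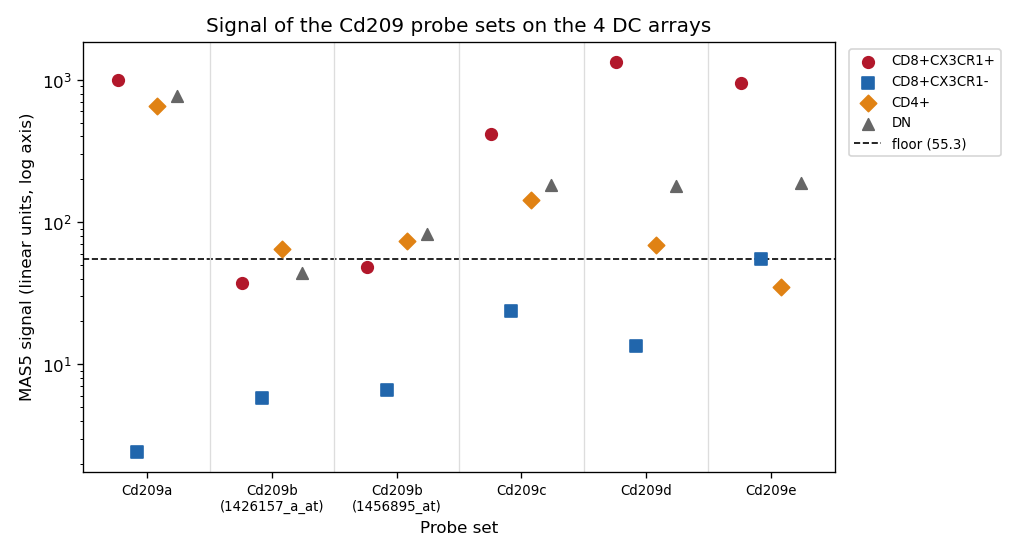
MAS5 signal (log axis) of the 6 Cd209 probe sets, with 1 point per array and the floor of 55.3 as a dashed line. The CD8+CX3CR1- point is at or under the floor for every probe set, and the CD8+CX3CR1+ point is the highest for Cd209a, Cd209c, Cd209d and Cd209e.

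Cd209a, the homologue named mouse DC-SIGN, had a signal of 995.7 in CD8+CX3CR1+ DCs, 2.4 in CD8+CX3CR1- DCs, 651.0 in CD4+ DCs and 768.5 in DN DCs. It was thus high in 3 subsets and at background in CD8+CX3CR1- DCs. Between CD8+CX3CR1+ and CD8+CX3CR1- DCs the difference was at least 18.0-fold. CD8+CX3CR1- DCs were also at least 11.8-fold lower than CD4+ DCs and at least 13.9-fold lower than DN DCs. Among the 3 subsets with signal, CD8+CX3CR1+ DCs were 1.53-fold above CD4+ DCs and 1.30-fold above DN DCs. CD4+ DCs were 1.18-fold below DN DCs. On the log2 scale these are 0.61, 0.37 and -0.24, against probe set spreads of 0.50, 0.42 and 0.50, so only the first exceeds its spread. Such a spread covers probe error alone.

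Cd209d, which encodes SIGNR3, had 1336 in CD8+CX3CR1+ DCs, 13.5 in CD8+CX3CR1- DCs, 69.2 in CD4+ DCs and 179.2 in DN DCs. CD8+CX3CR1+ DCs stood well apart from the rest, DN DCs came next, and CD4+ DCs were barely above the floor. Its CD8+CX3CR1+ signal was at least 24.2-fold above CD8+CX3CR1- DCs, 19.3-fold above CD4+ DCs and 7.46-fold above DN DCs. Of the 8739 genes above the floor on both the CD8+CX3CR1+ and the CD4+ array, Cd209d had the highest ratio, and against DN DCs it was 9th of 8664. Genes under the floor on either array were not ranked, such as Cd8a (at least 45.7-fold higher in CD8+CX3CR1+ than in CD4+ DCs). For Cd209d, CD4+ DCs were 2.59-fold below DN DCs, a log2 difference of -1.37.

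Cd209e, which encodes SIGNR4, followed the same order except at the bottom, with 950.6 in CD8+CX3CR1+ DCs, 55.3 in CD8+CX3CR1- DCs, 35.0 in CD4+ DCs and 187.5 in DN DCs. The CD8+CX3CR1- value lies a rounding step under the floor. CD8+CX3CR1+ DCs were at least 17.2-fold above CD8+CX3CR1- DCs and above CD4+ DCs, and 5.07-fold above DN DCs, where the ratio was 15th of 8664. The difference of CD8+CX3CR1- from CD4+ DCs is not given, since both were under the floor, and both were at least 3.39-fold below DN DCs.

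Cd209c, which encodes SIGNR2, had 415.1 in CD8+CX3CR1+ DCs, 23.5 in CD8+CX3CR1- DCs, 144.0 in CD4+ DCs and 181.9 in DN DCs. Its CD8+CX3CR1+ signal was at least 7.50-fold above CD8+CX3CR1- DCs. The excess over CD4+ DCs (2.88-fold) and DN DCs (2.28-fold) missed the 4-fold threshold. The log2 differences, 1.53 and 1.19, exceeded the probe set spread, which covers probe error alone. Cd209c ranked 97th of 8739 and 156th of 8664 genes. CD4+ DCs were 1.26-fold below DN DCs, within the spread.

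Cd209b, which encodes SIGNR1, had no array with a signal far from background. Its brighter probe set read 48.2 in CD8+CX3CR1+ DCs, 6.6 in CD8+CX3CR1- DCs, 73.0 in CD4+ DCs and 82.0 in DN DCs. Its other probe set read 37.5, 5.8, 64.1 and 43.9 in the same order. Taken per array, the 90th percentile of the background probe sets was 46.5 for CD8+CX3CR1+, 62.2 for CD8+CX3CR1-, 58.1 for CD4+ and 52.7 for DN DCs. By that measure the brighter probe set lay above background in all but CD8+CX3CR1- DCs, in CD8+CX3CR1+ DCs by a small margin, and the other in CD4+ DCs alone. No difference of Cd209b reached 2-fold by the floored signal. Of 8 marginal zone macrophage markers on the platform, 4, 2, 4 and 3 lay above the floor in the same order of arrays. Marco and Timd4 were at or under it on all 4 arrays, and Siglec1, which encodes CD169, read 37.0, 19.8, 22.5 and 64.3. Cd5l, a secreted macrophage protein, read 176.7, 34.7, 147.7 and 55.3, in that order. The phagocytic receptor gene Mertk read 164.6 in CD8+CX3CR1+ DCs, at least 2.98-fold above each other subset, where it was under the floor.

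Set side by side, CD8+CX3CR1+ DCs exceeded CD8+CX3CR1- DCs by at least 4-fold for 4 of the 5 genes (Cd209a, Cd209c, Cd209d and Cd209e), while 1.67% of all 12673 genes were called in this direction. Against CD4+ DCs, CD8+CX3CR1+ DCs were called higher for 2 of 5 (Cd209d and Cd209e; 0.395% of all genes), and against DN DCs for the same 2 (0.276%). CD8+CX3CR1- DCs were called lower than CD4+ DCs for Cd209a alone (1.8% of all genes) and lower than DN DCs for Cd209a alone (1.28%). Between CD4+ and DN DCs, 0 of 5 were called, against 0.071% of all genes higher and 0.181% lower in CD4+ DCs, though all 5 had the lower signal in CD4+ DCs by their brighter probe set. In the opposite directions the count was 0 of 5 throughout. CD8+CX3CR1+ DCs were lower for 1.15% of all genes against CD8+CX3CR1- DCs, 0.379% against CD4+ DCs and 0.134% against DN DCs, and CD8+CX3CR1- DCs were higher for 1.18% against CD4+ DCs and 0.742% against DN DCs. These comparisons share arrays, so their counts are not independent of each other. Cd209d and Cd209e were among the 19 genes (0.15%) whose CD8+CX3CR1+ signal exceeded each of the other 3 by at least 4-fold, in the fifth and ninth place by the smallest of the 3 ratios. Cd209a, Cd209c and Cd209d were below background in CD8+CX3CR1- DCs alone, a pattern of 464 genes (3.66%).

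**Figure D3:**
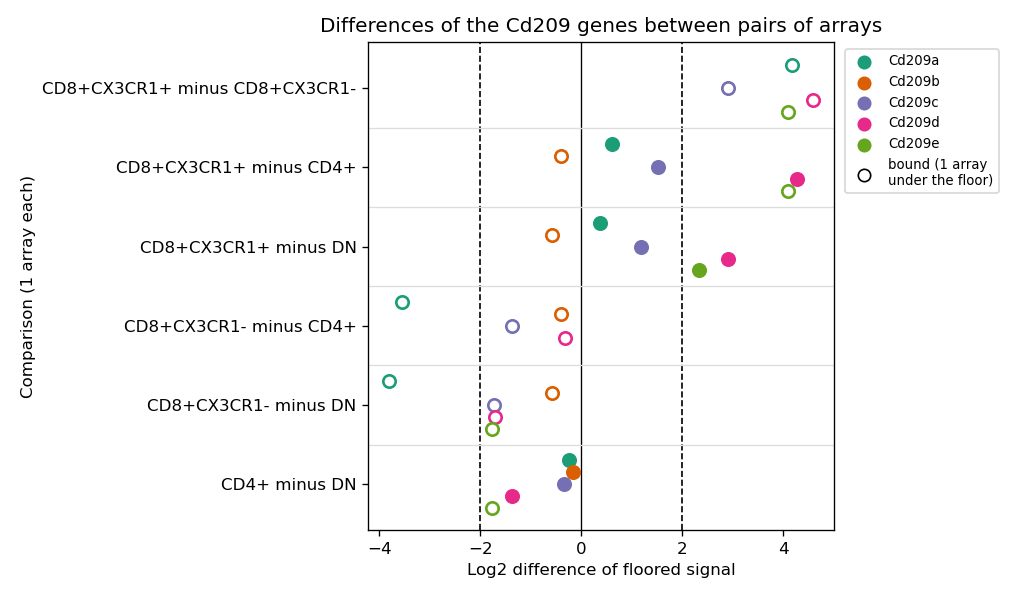
Log2 differences of floored signal of the 5 Cd209 genes in the 6 comparisons of arrays, with dashed lines at the 4-fold threshold. Filled points were above the floor on both arrays, open points are bounds, and no point is drawn where both arrays were under the floor. Cd209d and Cd209e lie past the threshold in all 3 comparisons of the CD8+CX3CR1+ array, and Cd209a and Cd209c in the first alone.

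The order of subsets was therefore shared only in part. The likeness of 2 genes was measured as the root mean square difference of their floored log2 signals over the 4 arrays, each centred on the gene's own mean. By this measure Cd209d and Cd209e were each other's closest gene of all 12673 (0.23). These are homologous genes with 1 probe set each. Whether the probe set of one also reads transcripts of the other could not be examined, since the sources used here give no probe sequences. Next to Cd209d came the VEGF receptor gene Kdr (0.40), the transcription factor gene Sox4 (0.45), the Ly49 family gene Klra17 (0.47) and the endocytic adaptor gene Dab2 (0.51). Next to Cd209e came Ptgr1, which encodes a reductase of prostaglandins and leukotrienes (0.39), Kdr (0.41), Dab2 (0.43) and Tcf4, which encodes the plasmacytoid DC factor E2-2 (0.44). Tcf4 read 3489 in CD8+CX3CR1+ DCs, 269.5 in CD8+CX3CR1- DCs, 470.0 in CD4+ DCs and 1135 in DN DCs, the same order of subsets as Cd209d.

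Cd209a had other near genes. They were Stat4, a transcription factor of the interleukin 12 response (0.12), the chemokine gene Ccl9 (0.13), Klrd1, which encodes CD94 (0.15), the calcium-binding protein gene S100a6 (0.20) and the Src-family kinase gene Fgr (0.20). Stat4 read 882.5 in CD8+CX3CR1+ DCs, 55.1 in CD8+CX3CR1- DCs, 593.1 in CD4+ DCs and 612.9 in DN DCs. Cd209e was no nearer to Cd209a than 1.48. Cd209c had Trp53i13 (0.05), Ceacam1 (0.07), Cdyl2 (0.08), the sialic acid receptor gene Cd33 (0.20) and the interleukin 7 receptor gene Il7r (0.20) as its nearest, and Cd209a lay at 0.87. Ceacam1, a glycoprotein that human DC-SIGN binds, read 459.3 in CD8+CX3CR1+ DCs, 45.0 in CD8+CX3CR1- DCs, 147.5 in CD4+ DCs and 201.4 in DN DCs. The nearest to Cd209b (Il1rap, Spata1, Mthfd2l, Serinc2 and Pcbp3, up to 0.03) were, like it, under the floor on both CD8+ arrays and between 70.4 and 83.1 on the other 2. Likeness over 4 arrays is a description, and the floor brings together genes whose true levels under it may differ.

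Of the neighbouring genes, Clec4g, which encodes the lectin LSECtin, read 194.4 in CD8+CX3CR1+ DCs, 3.7 in CD8+CX3CR1- DCs, 126.7 in CD4+ DCs and 114.3 in DN DCs. It thus had the order of Cd209a at the top and bottom, with CD8+CX3CR1+ DCs at least 3.51-fold above CD8+CX3CR1- DCs, short of the 4-fold threshold. Its other probe set read 53.8, 7.9, 61.7 and 3.1. Fcer2a read 114.3, 81.1, 49.9 and 83.3, with its other probe set at 8.0 or lower throughout. Cd209f reached the floor on the CD4+ array alone (98.0), and Cd209g on no array (highest 35.4).

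Among the other C-type lectins and lectin-like receptors, 23 of the 32 on the platform were detected. CD8+CX3CR1+ DCs were called higher than CD8+CX3CR1- DCs for 7 of the 23 and lower for 1 (1.67% and 1.15% of all detected genes). The median log2 difference was 1.16 (0 over all detected genes). Clec4a3, a member of the DCIR family, was at least 15.4-fold higher (853.3 in CD8+CX3CR1+ DCs against 34.8 in CD8+CX3CR1- DCs). In the same order Clec7a, which encodes the beta-glucan receptor Dectin-1, was 10.2-fold higher (4128 against 406.3) and Cd72, an inhibitory receptor of B cells, at least 6.58-fold (364.3 against 6.9). Clec4a2, a DCIR family member too, read 497.9 against 8.2. Cd207, which encodes langerin, was at least 13.1-fold lower (27.4 against 724.6). Of these 23 genes, 0 had a CD8+CX3CR1+ signal at least 4-fold above each of the other 3, a pattern seen in Cd209d and Cd209e. Over all detected genes its share was 0.15%, so most lists of this size would hold 0. Clec4a3 and Clec4a2 reached their highest signals elsewhere, at 1446 in CD4+ DCs and 1175 in DN DCs. CD8+CX3CR1- DCs were called lower than CD4+ DCs for 6 of the 23 and higher for 1 (1.8% and 1.18% of all detected genes), with a median of -0.88. They were called lower than DN DCs for 6 and higher for 1 (1.28% and 0.742%), with a median of -0.29. Clec4n, which encodes Dectin-2, was at least 15.7-fold lower in CD8+CX3CR1- DCs than in CD4+ DCs.

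**Figure D4:**
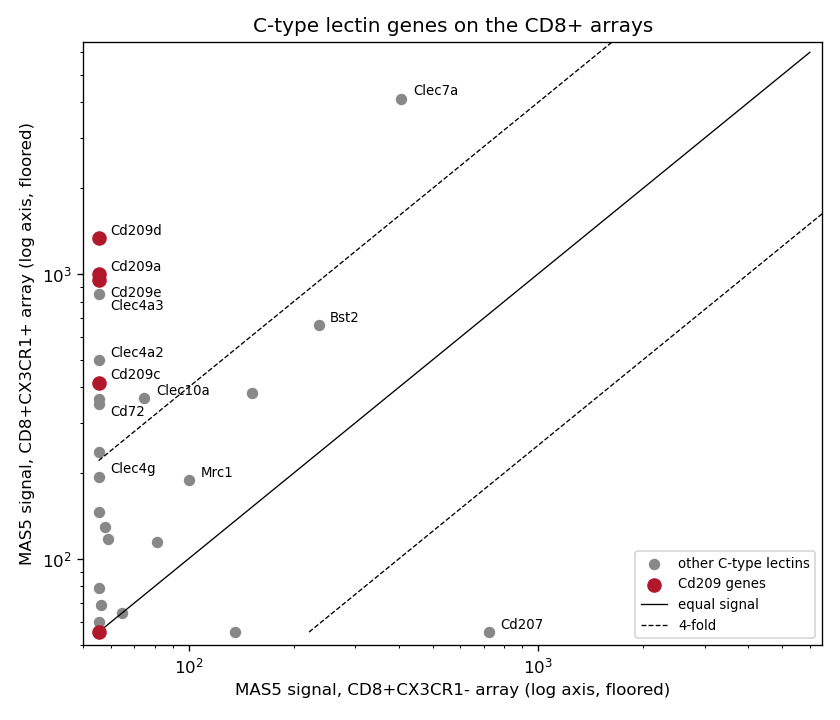
MAS5 signal of the C-type lectin genes and the 5 Cd209 genes on the CD8+CX3CR1+ array (vertical, log axis) against the CD8+CX3CR1- array (horizontal, log axis), with values raised to the floor of 55.3. Red points are the Cd209 genes, of which Cd209d, Cd209a, Cd209e and Cd209c lie above the upper 4-fold line at the left edge and Cd209b lies at the floor on both axes.

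DC-SIGN homologues act with other proteins, most of them known from human DC-SIGN. Of 18 such signalling genes listed, 12 were detected, and CD8+CX3CR1+ DCs were called higher than CD8+CX3CR1- DCs for 1, Fcer1g, which encodes the gamma chain shared by Fc receptors, by 29.4-fold (3693 against 125.6). Fcer1g read 3903 in CD4+ DCs and 2649 in DN DCs. The list's median log2 difference was 0.19. Syk, the kinase through which SIGNR3 can signal in mice, read 1687 in CD8+CX3CR1+ DCs, 795.3 in CD8+CX3CR1- DCs, 1838 in CD4+ DCs and 1771 in DN DCs, and was not called. Of 14 genes of clathrin-coated pits and endosomes, 0 was called between the CD8+ arrays, with a median of -0.38. Over all detected genes 1.67% were called higher and 1.15% lower there, so most lists of this size would hold 0. Of 10 detected ligand and counter-receptor genes 1 was called higher, Ceacam1 (at least 8.30-fold), with a median of 0.03.

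Factors and receptors known to act on DC-SIGN genes, or on CD11b DCs, gave a median of 0.42 over 18 detected genes. CD8+CX3CR1+ DCs were called higher than CD8+CX3CR1- DCs for 3 and lower for 0 (1.67% and 1.15% of all detected genes). Irf4, a partner of PU.1 on EICE sequences, read 880.0 in CD8+CX3CR1+ DCs, 3.5 in CD8+CX3CR1- DCs, 304.9 in CD4+ DCs and 407.1 in DN DCs. Its order of subsets was that of Cd209a, Cd209c and Cd209d, with at least 15.9-fold between the CD8+ arrays. Irf8, the other IRF partner for which the EICE letters were searched, belongs to the CD8 DC marker list. It read 1409 in CD8+CX3CR1+ DCs, 13285 in CD8+CX3CR1- DCs, 616.7 in CD4+ DCs and 4847 in DN DCs. Irf8 was thus highest on the array where the Cd209 genes were at background. A part of either factor in the Cd209 signals was not tested. Klf4, a factor of myeloid cells, was 9.10-fold higher in CD8+CX3CR1+ DCs (1103 against 121.2), and Zeb2 at least 4.16-fold (229.9 against 48.1). Spi1, which encodes PU.1, read 1214, 919.1, 1107 and 1128 in the order of arrays used above and was not called. CD8+CX3CR1- DCs were lower than CD4+ DCs in Relb, an NF-kB subunit (4.94-fold), and higher in the transcription factor gene Myb (5.09-fold).

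Marker lists of DC types differed between the CD8+ arrays, while most lists of other cells barely did. The median log2 difference, CD8+CX3CR1+ minus CD8+CX3CR1-, was 0.01 for red pulp macrophage, 0 for marginal zone macrophage and 0.07 for monocyte markers. It was 0.18 for B cell, 0.17 for T cell and 0.78 for NK cell markers, against 0 over all detected genes. Of all detected genes, 1.67% were called higher and 1.15% lower on the CD8+CX3CR1+ than on the CD8+CX3CR1- array. Of 13 detected markers of CD4 and CD11b DCs, 8 were called higher and 0 lower in this comparison (median 3.34). Of 15 markers of CD8 DCs, 0 were called higher and 10 lower (median -3.24). Of 9 plasmacytoid DC markers, 3 were called higher (Klra17, Spib and Tcf4; median 1.69), and their summed signal was 8187 in CD8+CX3CR1+ DCs, 1084 in CD8+CX3CR1- DCs, 1718 in CD4+ DCs and 2926 in DN DCs, an order like that of Cd209d. Ly6d, a plasmacytoid DC marker, was under the floor on all 4 arrays and Siglech read 205.6, 63.6, 5.8 and 12.9. The red pulp macrophage list summed to 4224, 2813, 7558 and 4572, and the marginal zone macrophage list to 1365, 4326, 3016 and 2388, both in the order CD8+CX3CR1+, CD8+CX3CR1-, CD4+ and DN. Such sums add unlike probe sets and follow their brightest members. Havcr2 (557.6, 3149.9, 1855.1 and 1140.7) and Ccr7 (359.8, 983.1, 844.9 and 1015.4), which DCs are known to express too, made up most of the marginal zone sum on each array, while Cd5l and Mertk were highest in CD8+CX3CR1+ DCs. In the red pulp list, CD8+CX3CR1+ DCs were called higher than CD8+CX3CR1- DCs for 2 of 13 genes and lower for 0. The 2 were Adgre1, which encodes F4/80 (578.5 against 143.1), and the complement gene C1qb (742.0, by 12.4-fold). Adgre1 was higher still in CD4+ DCs (3068) and DN DCs (1692). The monocyte list summed to 18750, 6740, 25130 and 17030 in that order, of which Csf1r made up 11291, 498.3, 13894 and 9142, with F13a1 under the floor throughout. In that list CD8+CX3CR1+ DCs were called higher than CD8+CX3CR1- DCs for Csf1r and Ms4a6c and lower for Treml4. Ccr2 of the same list read 705.1, 225.0, 142.8 and 539.6, above the floor on every array. B cell, T cell and NK cell lists had 5, 3 and 4 members above the floor on the CD8+CX3CR1+ array, of 9, 6 and 7 on the platform. Cd79a and Ncr1 were under it on all 4 arrays. Of the B cell list, Ighm (4112, 3226, 4319 and 3045) and Ms4a1 (360.8, 445.8, 202.0 and 162.5) were above it on all 4. Called higher in CD8+CX3CR1+ than in CD8+CX3CR1- DCs were Cd79b, a chain of the B cell receptor (593.0 against 3.1, at least 10.7-fold), and Klrd1 of the NK cell list (3723 against 166.9, 22.3-fold). The part of other cells in the Cd209 signals was not tested, and in bulk samples more cells with a transcript and more transcript per cell cannot be told apart.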

How the data were processed

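Total RNA of 4 sorted DC subsets was labelled with biotin and hybridised to 1 array each, per the labels' protocols. The authors deposited MAS5 intensity values per probe set, per the submitters' processing notes, without a version. MAS5 subtracts background, uses the mismatch probes and rescales whole arrays. In the deposited values the mean after trimming 2% at each end was 150.0 on all 4 arrays, with medians of 40.8 (CD8+CX3CR1+), 40.3 (CD8+CX3CR1-), 51.3 (CD4+) and 42.2 (DN). The sources used here give no detection calls, sort gates or annotation build, so array features have no coordinates. Of 45101 probe sets, 34945 have 1 gene symbol, 932 several and 9160 none, and 64 are controls. Of the Entrez identifiers 99.4% stand in RefSeq (GRCm38.p6), with 0 symbols changed.

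From these values a gene was represented by the probe set whose mean log2 signal was highest, values were raised to the floor of 55.3, and the 6 pairs of arrays were compared in Python 3.11.15 (pandas 2.3.3). A call needs a 4-fold difference, and no test is possible with 1 array per group. The steps were tested on simulated data. These took only genes whose mean signal was above the floor, so the test says little about differences given as bounds. The number of arrays limits the precision. Promoter windows were aligned locally (match 2, mismatch -3, gap opening -5, gap extension -2).

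The members, lists and rules were chosen with earlier results of these data known, and support nothing independently. Named by rule were the members, the neighbouring genes, up to 5 called genes of each list with the largest differences in the comparisons with CD8+CX3CR1- DCs, the 5 genes most like each member (RIKEN, Gm and LOC names passed over), and sort markers. Spi1, Irf8, Syk, Siglech, Siglec1, Cd5l, Mertk, Ccr7, Ccr2, Ighm, Ms4a1 and the markers at background were named after their values were seen. The alternatives were 3 other floors, no floor, 2 scalings and 2 ways of taking probe sets.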

Additional observations from a re-analysis of the deposited data

How the results depend on the processing

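In the 8 other settings no called difference of a Cd209 gene changed sign. The 4, 2 and 2 genes called higher in CD8+CX3CR1+ DCs (against CD8+CX3CR1-, CD4+ and DN DCs) were as many in 6 of the 8. With no floor Cd209b was called too in the first comparison, making 5, while 1660 of all 18193 genes were then called higher. Without _x, _s and _a probe sets, Cd209a and Cd209d have no probe set left, and the counts over the remaining 3 genes were 2, 1 and 1, with 0 and 0 for CD8+CX3CR1- against CD4+ and DN DCs, and 2, 2 and 3 genes above the floor on the CD8+CX3CR1+, CD4+ and DN arrays.

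Counts that involve low arrays moved with the background level used. At its 75th percentile (35.2), CD8+CX3CR1- DCs were called lower for 2 genes against CD4+ DCs and 3 against DN DCs, and CD4+ DCs for 1 against DN DCs. Over all genes these calls numbered 309, 205 and 39 of 15294. With no floor the Cd209 counts were 4, 4 and 1, and those over all genes 2225, 1721 and 1216 of 18193. Cd209e came to lie above the floor in CD8+CX3CR1- DCs (1 gene) at the 75th percentile, after quantile normalization and with equal medians. At the 95th percentile (71.9), Cd209d fell under the floor in CD4+ DCs, leaving 3 genes above it there. The difference of Cd209d between CD8+CX3CR1+ and CD4+ DCs then became a bound, with a log2 value of 4.22. The number above the floor cannot be given without a floor.

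With a gene's probe sets averaged, Cd209b was -0.12 (log2) between CD8+CX3CR1+ and DN DCs. Equal medians shifted the median of all genes by 0.17 for CD8+CX3CR1+ minus CD4+, 0.15 for CD8+CX3CR1- minus CD4+ and -0.12 for CD4+ minus DN. Genes called higher and lower were then 90 and 21 (50 and 48 as reported), 237 and 158 (149 and 228), and 5 and 35 (9 and 23). Over all genes, the 75th percentile gave 94 and 98 calls for CD8+CX3CR1+ against CD4+, 57 and 31 against DN (35 and 17 as reported) and 51 and 39 for CD4+ against DN. The 95th gave 14 lower for CD4+ against DN. Averaged probe sets gave 128 higher for CD8+CX3CR1+ against CD8+CX3CR1- (212 as reported), 31 against CD4+ and 21 against DN, and 107 lower for CD8+CX3CR1- against DN (162). No floor gave 1216 to 2225 calls in each direction among 18193 genes, where 9 to 228 among 12673 were reported. Without a floor the median of CD4+ minus DN was 0.11 and that of CD8+CX3CR1- minus CD4+ -0.12. No paired analysis was possible because each subset has 1 array, and no replicate could be left out.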

Other observations

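The EICE letters that stand in the windows of Cd209a, Cd209d and Cd209e were counted in the windows of the other detected genes, after those matches had been seen. Of 160 genes called higher in CD8+CX3CR1+ than in CD8+CX3CR1- DCs that have a window, 8 (5.0%) held them, and of 115 called lower, 0. Over all 10250 detected genes with a window, 305 (2.98%) held them. For the PU.1 core the shares were 39.4%, 34.8% and 30.1% in the same order, for the interferon-stimulated response element 5.0%, 5.22% and 3.67%, and for STAT6 6.88%, 6.96% and 6.61%. The AP-1 letters stood in 15 of 160, 15 of 115 and 702 of 10250 windows. These shares are a description and were not tested.

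Beside Cd209d and Cd209e, the 19 genes at least 4-fold higher in CD8+CX3CR1+ DCs than in each other subset include Cyp7b1, an enzyme of oxysterol metabolism (973.6 in CD8+CX3CR1+ DCs, 10.6 in CD8+CX3CR1- DCs, 94.9 in CD4+ DCs and 61.3 in DN DCs), the Nodal antagonist gene Lefty1 (503.4, 42.1, 61.6 and 41.8), the B cell adaptor gene Blnk (334.3, 21.0, 15.5 and 78.8) and the endothelial gene Plvap (223.7, 8.9, 3.7 and 49.4). These genes were chosen after their values were seen.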
